A study of Mus musculus with 4 samples.

Results

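Immediate early response genes were followed across the cell types of the injured mouse kidney by droplet single-cell RNA sequencing. The set held 34 genes, taken by symbol from the 31053 genes of each deposited matrix, and all 34 were found. The 4 libraries came from kidneys of male C57BL/6 mice killed 5, 14 or 28 days after ischemia-reperfusion (I/R), in which blood flow to the kidney is stopped and then restored, and from a further day 5 group that had received L. casei Zhang (Lac.z), a probiotic bacterium, by gavage at 1e9 colony-forming units daily over the 4 weeks before injury. Each group had 1 library, so no test between groups was possible, and every ratio compares 2 libraries rather than 2 conditions. The sources used here do not give the number of animals per library or what mice outside the Lac.z group received by gavage, and uninjured kidney was not analysed here.

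Immediate early genes are transcribed within minutes of a stimulus and without new protein synthesis, because the factors that drive them, such as CREB, serum response factor and NF-kB, are already present in the cell. Many of their products are transcription factors that start a second wave of expression, and others are phosphatases, RNA decay factors and signalling inhibitors that end the response. In kidney they are known to be induced in tubules by ischemia, and in many tissues also by warm enzymatic digestion into single cells. Tissue for all 4 libraries was digested with enzymes for 30 minutes at 37 °C. No sample prepared without digestion was analysed here, so the part of digestion in the levels below was not tested.

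Several members carry the core of the cAMP response element (CRE), to which CREB and ATF proteins are known to bind, close to their start. RefSeq promoter windows (GRCm38.p6) matched 27 of the 34 members, and Fosl1, Egr1, Egr3, Klf10, Myc, Sik1 and Ier2 were not matched. In the 250 bases before the start, the core TGACG, read on both strands, occurred in 11 of the 27 (40.7%), against 17.9% of the 27025 windows of all genes. The palindrome TGACGTCA, which contains the core on both strands, occurred in 3 (11.1%), against 1.62% of all windows. The AP-1 site TGANTCA occurred in 1 (3.70%), against 6.87%, and the CArG box of serum response factor likewise in 1 (3.70%), against 1.40%. GGG and CC separated by 5 bases, the outer bases of NF-kB sites, occurred in 19 (70.4%), against 45.4%. These matches describe letters in the windows and not binding.

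The last 150 bases before the start are printed 5′ to 3′ for 5 members whose levels are described below, with the CRE core in capitals. They lie at chr12:85473740-85473889 on the plus strand (Fos), chr7:19310046-19310195 on the minus strand (Fosb), chr1:191183334-191183483 on the minus strand (Atf3), chr15:101266696-101266845 on the plus strand (Nr4a1) and chr17:26508473-26508622 on the minus strand (Dusp1). Each printed stretch lies directly upstream of the gene's RefSeq start.
Fos: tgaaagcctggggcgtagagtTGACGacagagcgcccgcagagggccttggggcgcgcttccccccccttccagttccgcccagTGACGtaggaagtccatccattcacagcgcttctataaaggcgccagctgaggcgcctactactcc
Fosb: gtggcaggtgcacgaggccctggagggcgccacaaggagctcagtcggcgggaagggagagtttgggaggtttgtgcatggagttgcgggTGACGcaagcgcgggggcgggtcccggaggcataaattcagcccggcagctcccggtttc
Atf3: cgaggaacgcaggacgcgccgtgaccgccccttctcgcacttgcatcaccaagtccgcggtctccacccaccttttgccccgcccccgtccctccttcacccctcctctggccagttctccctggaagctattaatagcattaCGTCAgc
Nr4a1: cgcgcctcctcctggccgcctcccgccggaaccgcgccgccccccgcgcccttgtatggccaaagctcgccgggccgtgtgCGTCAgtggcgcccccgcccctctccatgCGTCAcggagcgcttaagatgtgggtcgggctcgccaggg
Dusp1: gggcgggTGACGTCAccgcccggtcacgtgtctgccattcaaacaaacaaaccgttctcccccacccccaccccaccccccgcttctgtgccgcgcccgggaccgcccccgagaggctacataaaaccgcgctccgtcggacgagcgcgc

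Cells were assigned by a gate on known marker genes, which gave 32407 gated cells of 34281 kept. The proximal tubule gate held 1357, 3850, 5550 and 9353 cells in the libraries of day 5, day 5 with Lac.z, day 14 and day 28, and all values below that come in 4 are given in this order. The macrophage gate held 3578, 1500, 759 and 435 cells, the T cell gate 411, 240, 656 and 474, and the endothelial gate 169, 93, 170 and 196. Every marker of these 4 classes was detected in its own class in every library. Some barcodes scoring highest for a class lay close to the gate's cut, either gated or just outside it. Per library these were 87 to 372 for proximal tubule and 14 to 187 for macrophages. For T cells they were 15 to 37, and for endothelial cells 11 to 25. Total depth was 76678882 to 104454319 unique molecular identifiers (UMIs) per library. The libraries shared 177 barcode sequences among 43378 barcodes. Levels are UMIs of a gene per 1000000 UMIs of the same class and library (CPM), and "higher" or "lower" below means a ratio of at least 1.5 with at least 50 UMIs over both libraries. All intervals are 95% and cover counting error only. Where a class is called highest or lowest of all classes, only classes with at least 20 cells in that library were ranked.

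Within the proximal tubule gate the members were concentrated in a fraction of the barcodes. That fraction also held Malat1, a long noncoding RNA that is retained in the nucleus and is not a member. Barcodes with at least 20 Malat1 UMIs per 10000 made up 38.0%, 53.7%, 25.7% and 25.9% of proximal tubule barcodes (515, 2069, 1425 and 2418 cells) and carried 94.6%, 98%, 96.8% and 94.9% of the member UMIs. Their summed member level was 8743, 13276, 18695 and 13289 CPM. The remaining barcodes held 626, 522, 614 and 689 CPM. The ratio between them was 14.0, 25.4, 30.5 and 19.3. The split by Malat1 was chosen after the data had been seen.

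**Figure D1:**
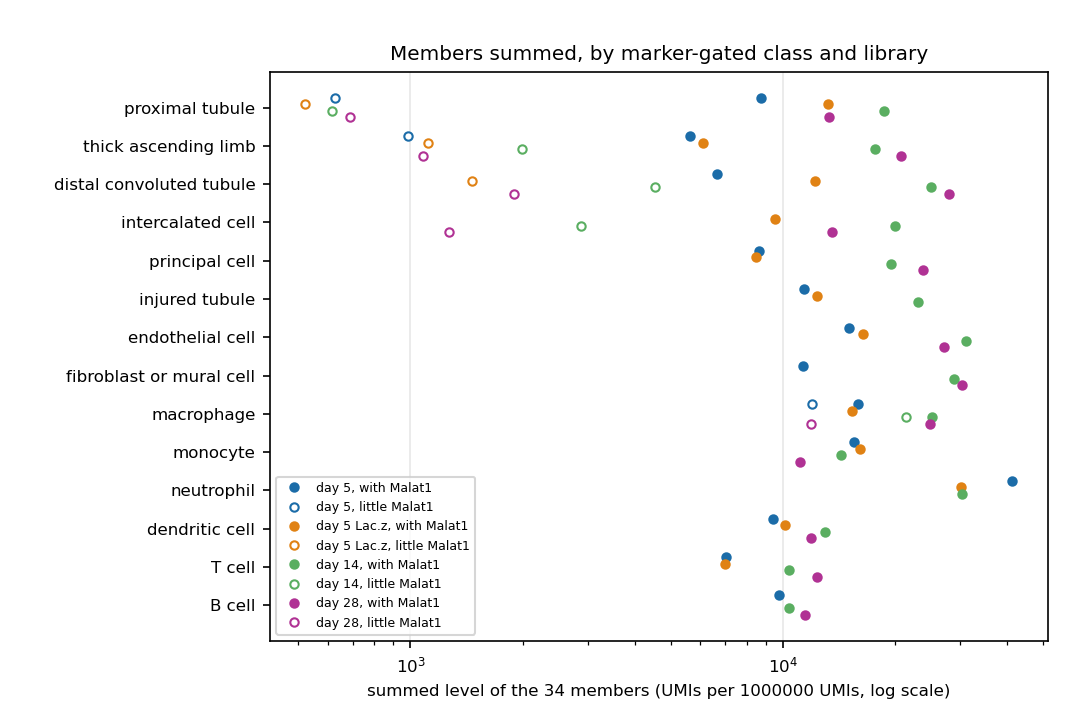
Summed level of the 34 members (CPM, log scale) by marker-gated class and library. Filled symbols are barcodes with Malat1 and open symbols are barcodes with little Malat1, shown where at least 20 cells were present. In the proximal tubule the open symbols lie between 522 and 689 CPM and the filled ones between 8743 and 18695 CPM.

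Of the 34 members, 26 were measured in all 4 libraries, and these 26 were higher with Malat1 in each, against 31.7% of all genes. The other 8, which were Fosl1, Maff, Egr2, Egr3, Nr4a1, Nr4a2, Nr4a3 and Dusp2, had under 50 UMIs in at least 1 library. Some of their ratios from few UMIs were below 1, such as 0.802 for Dusp2 at day 5 (8 UMIs in each kind of barcode). The median member ratio was 7.91, 11.9, 16.1 and 10.4. Fosb, an AP-1 subunit, was at 653, 1096, 1649 and 744 CPM with Malat1 and at 1.77, 2.87, 16.1 and 10.5 CPM with little Malat1. The barcodes with little Malat1 had fewer UMIs, with medians of 5086, 5712, 4561 and 3676 against 10855, 9952, 15013 and 11857. Their median mitochondrial share was 20.4% to 23.9%, against 10.9% to 18% with Malat1. Neat1, another nuclear long noncoding RNA, was at 10.8 to 15.4 CPM against 1672 to 3084 CPM. What separates these barcodes was not tested.

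Clusters made without the 34 members among the variable genes divided the proximal tubule in the same way. Malat1, Neat1 and genes that vary with them were not left out, so these clusters are not independent of the split by Malat1. In the large clusters 3 and 4, where 99.3% to 100% of cells had Malat1, the median cell held 7710 to 18876 member CPM. In clusters 0, 1, 5, 6 and 8, also large, where 0.142% to 8.38% had it, the median cell held 275 to 662. Counted per cell, 66.0%, 49.5%, 71.7% and 71.6% of proximal tubule cells held under 2000 member CPM, and 20%, 40.2%, 22.8% and 20.3% held over 8000. In macrophages 80.6%, 81.3%, 93.8% and 87.4% held over 8000. Malat1 was present in 91.4% to 99.7% of macrophages, at least 97.3% of T cells and 97.1% to 100% of endothelial cells, so the split bears mainly on tubule classes. In thick ascending limb cells 31.1% to 56.9% had it. The clusters named macrophage by the same markers differed in size between libraries. The largest of these held 1632, 334, 658 and 386 cells (cluster 2), 1398, 222, 50 and 11 (cluster 7), and 94, 867, 29 and 24 (cluster 9). The part of this mix in the macrophage ratios below was not tested.

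**Figure D2:**
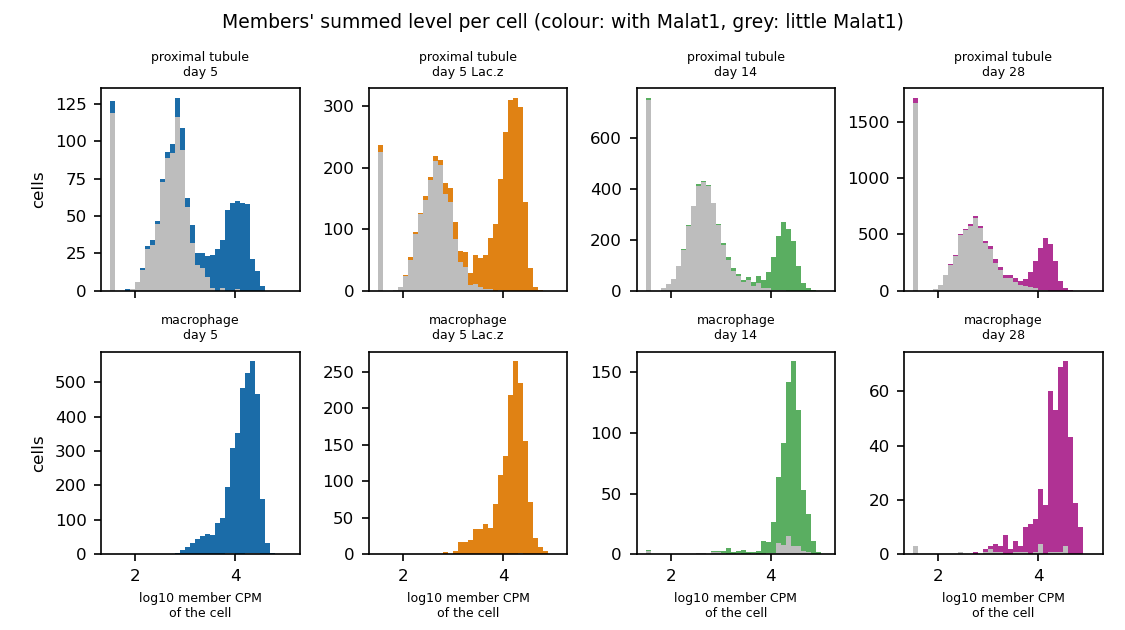
Members' summed level per cell (log10 CPM, horizontal) against the number of cells (vertical) in proximal tubule and macrophage cells of each library, with grey for barcodes with little Malat1. The leftmost bar also holds cells without a member UMI. In proximal tubule cells of day 14, 71.7% lie below 2000 CPM and 22.8% above 8000, while 93.8% of day 14 macrophages lie above 8000.

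The day 14 library was compared with that of day 5 to see how member levels differed between them. Many members were higher at day 14 in proximal tubule, macrophages, T cells and endothelial cells. Of the measured members in the proximal tubule, 21 of 29 were higher (9.26% of all genes) and 1, Socs3, was lower (5.99%). Among proximal tubule barcodes with Malat1, 25 of 29 were higher (14.1%) and 1 lower (4.31%). The barcodes with little Malat1, 4125 of 5550 at day 14, had 4 of 24 higher (10.1%) and 8 lower (13.3%) and a median log2 ratio of -0.16. Macrophages had 21 of 33 higher (10.5%) and 1, Ier3, lower (12.6%). T cells had 15 of 30 higher (6.78%) and 2, Socs3 and Ier3, lower (5.59%), and endothelial cells 21 of 27 higher (9.89%) and 0 lower (6.75%). The median log2 ratio of the measured members was 0.79 in proximal tubule, 0.67 in macrophages, 0.56 in T cells and 1.02 in endothelial cells, against 0.03, -0.08, 0.00 and -0.02 over all genes. When each proximal tubule cell was weighted equally in place of summing UMIs, 10 of the members were higher. The median proximal tubule cell held 824 member CPM at day 5 and 566 at day 14. The headers name software 3.0.2 for both day 5 matrices and 3.1.0 for days 14 and 28, so version and time after injury cannot be told apart.

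The day 28 library was compared with those of day 5 and day 14, and the comparisons share libraries. Against day 5, the proximal tubule had 5 of 29 members higher (7.40%) and 2 lower (6.75%). With Malat1 these were 16 of 29 higher (14.4%) and 2 lower (5.02%), and with little Malat1 8 of 24 higher (6.52%) and 7 lower (13.2%), so the count depends on the barcodes used. Macrophages had 21 of 33 higher (15.8%) and 4 lower (13.0%), T cells 20 of 29 higher (8.88%) and 2 lower (7.00%), and endothelial cells 15 of 25 higher (9.25%) and 0 lower (8.58%). Dendritic cells, of which 52 to 92 were gated at days 5, 14 and 28, had 8 of 28 higher (7.74%) and 2 lower (13.1%). Against day 14, proximal tubule members were lower or within 1.5-fold: 0 of 30 were higher (3.29%) and 9 lower (5.57%). With Malat1 the counts were 0 (3.21%) and 9 (4.31%), and with little Malat1 3 of 27 (2.84%) and 4 (5.61%). Macrophages had 0 of 33 higher (7.38%) and 6 lower (4.30%), endothelial cells 0 of 29 higher (4.15%) and 6 lower (5.34%), and T cells 4 of 29 higher (5.35%) and 1 lower (4.76%). Dendritic cells had 0 of 29 higher (5.33%) and 1 lower (7.65%).

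Lac.z at day 5 was compared with day 5 without it. In the proximal tubule 13 of 29 members were higher (6.60%) and 2, Socs3 and Gadd45b, lower (1.96%). With Malat1, 10 of 27 were higher (5.23%) and the same 2 genes were the lower ones (2.03%). With little Malat1 the counts were 0 of 21 higher (3.26%) and 6 lower (3.53%), with a median log2 ratio of -0.35. The share of proximal tubule barcodes with Malat1 was also larger with Lac.z, 53.7% against 38.0%, and its part in the counts from all barcodes was not tested. In macrophages, T cells and endothelial cells at most 1 member was higher. Counts this small cannot be set apart from the share of all genes. Macrophages had 1 of 33 higher (8.10%) and 2 lower (2.95%), T cells 1 of 25 higher (4.65%) and 1 lower (3.06%), and endothelial cells 0 of 23 higher (6.50%) and 0 lower (5.59%). Neutrophils, which had 171, 122 and 77 cells in the first 3 libraries, had 0 of 26 higher with Lac.z (6.49%) and 8 lower (15.8%). Dendritic cells had 3 of 29 higher (6.75%) and 2 lower (3.71%), and injured tubule cells 1 of 28 higher (9.98%) and 0 lower (6.78%).

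**Figure D3:**
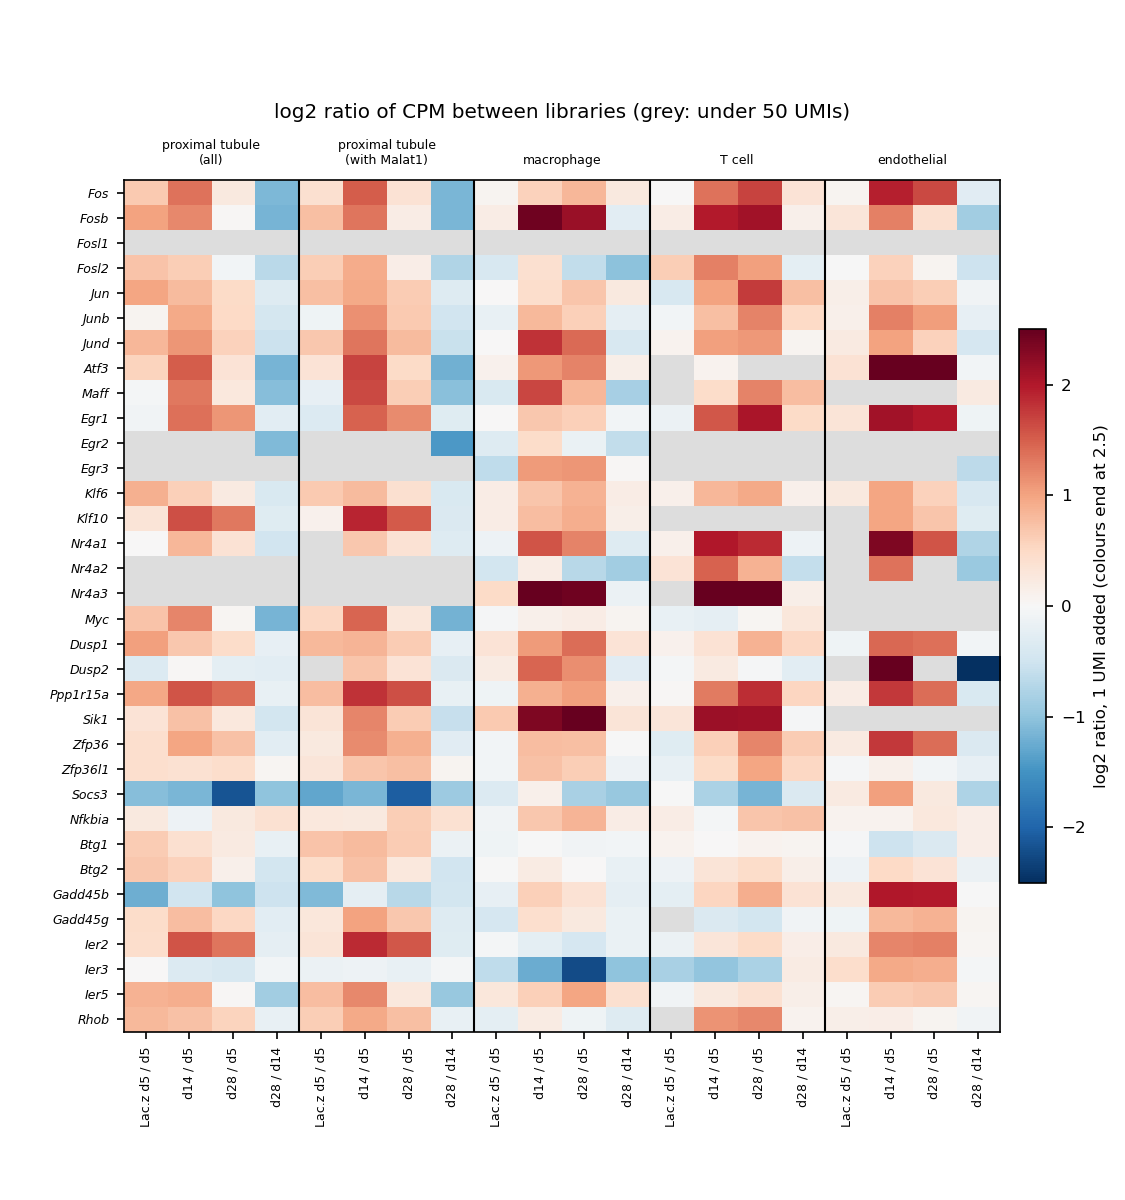
Log2 ratio of CPM between libraries for each of the 34 members (rows) in 4 comparisons per class (columns), in all proximal tubule barcodes, those with Malat1, macrophages, T cells and endothelial cells. Red is higher in the first-named library, blue lower, grey under 50 UMIs, and colours end at 2.5. The columns of day 14 against day 5 are mostly red in each class shown, and Socs3 is blue in the proximal tubule in all 4 comparisons.

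The AP-1 subunits pair as Fos with Jun proteins on shared sites. Fos, the best known immediate early gene, was at 516, 812, 1330 and 613 CPM in the proximal tubule. The day 14 level was 2.58-fold that of day 5 (2.51 to 2.65), and day 28 was 2.17-fold below day 14. With Malat1 the values were 917, 1218, 2620 and 1184 CPM, so day 14 again stood apart from the other 3 libraries. In macrophages Fos was 2090, 2200, 3137 and 3718 CPM, with the highest level at day 28 (1.78-fold over day 5). Endothelial Fos was 976, 1017, 3734 and 3080 CPM, 3.83-fold and 3.16-fold over day 5 at days 14 and 28, and both day 5 libraries lay close together. T cells had the lowest Fos of these 4 classes, at 110, 110, 280 and 357 CPM.

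Fosb, which dimerises with the same Jun partners, was at 363, 728, 829 and 372 CPM in the proximal tubule. It was 2.00-fold higher with Lac.z than at day 5 (1.94 to 2.07), and day 28 was close to day 5. With Malat1 the Lac.z ratio was 1.68. In macrophages Fosb had the values 169, 192, 906 and 750 CPM, a ratio of 5.37 at day 14 (5.19 to 5.55) and 4.44 at day 28. The macrophage day 5 libraries were alike, and both later ones were high. In T cells it was 51.8, 58.3, 205 and 223 CPM, also with 2 low and 2 high libraries. In endothelial cells it was 336, 412, 807 and 443 CPM, so that day 14 alone was more than 1.5-fold above day 5.

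The share of macrophages with a Fosb UMI followed the level: 45.7%, 53.9%, 89.5% and 79.1%, and 19.7%, 23.8%, 69.1% and 65.0% after each cell was thinned to 2000 UMIs. The macrophages' median depth was 11280, 11119, 9162 and 5431 UMIs. T cells, the lowest of the 4 classes in Fosb level, had thinned shares of 9.74%, 9.09%, 21.6% and 24.0% at median depths of 4727, 4596, 4454 and 3207. No class known to lack Fosb was available, so the part of free RNA in these shares was not tested.

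Jun was at 1501, 2980, 2601 and 2094 CPM in the proximal tubule, lowest at day 5 and 1.99-fold higher with Lac.z. With Malat1 it was 2667, 4473, 5150 and 4144 CPM. In T cells Jun was 124, 93.8, 248 and 417 CPM, 3.37-fold higher at day 28 than at day 5, with both day 5 libraries low. Macrophage Jun, at 1247, 1250, 1699 and 2019 CPM, passed 1.5-fold at day 28 only (1.62). Endothelial Jun was 2847, 3168, 4677 and 4376 CPM, 1.64-fold and 1.54-fold over day 5.

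Junb, a Jun family member that is a weaker activator than Jun, was lowest in the proximal tubule of all classes in all 4 libraries, at 143, 149, 274 and 201 CPM. In T cells it was 1312, 1252, 2216 and 3117 CPM, and in macrophages 1666, 1473, 2934 and 2526. Endothelial Junb was 1358, 1474, 3260 and 2811 CPM. In each of these classes both later libraries were above both day 5 libraries. Jund, often described as the constitutive Jun gene, was in macrophages at 668, 669, 2344 and 1773 CPM. That was 3.51-fold (3.45 to 3.58) and 2.66-fold over day 5, a wider gap than for Fos or Jun in the same cells. Jund was 648, 1157, 1394 and 964 CPM in the proximal tubule, 542, 577, 1100 and 1155 in T cells, and 1507, 1772, 3026 and 2255 in endothelial cells.

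Fosl2, a Fos-related subunit, was 12.4, 20.4, 18.9 and 11.8 CPM in the proximal tubule and 89.3, 67.7, 118 and 58.0 in macrophages, where day 28 was 1.54-fold below day 5. In T cells it was 35.9, 54.7, 86.9 and 73.4 CPM and was the 1 member that was higher there with Lac.z (1.52, interval 1.10 to 2.11). Fosl1, the other Fos-related subunit, had at most 0.0333 CPM in the proximal tubule and was not measured in any of the 4 classes. It was at 20.8, 22.4 and 17.1 CPM in the injured tubule gate at day 5, day 5 with Lac.z and day 14.

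**Figure D4:**
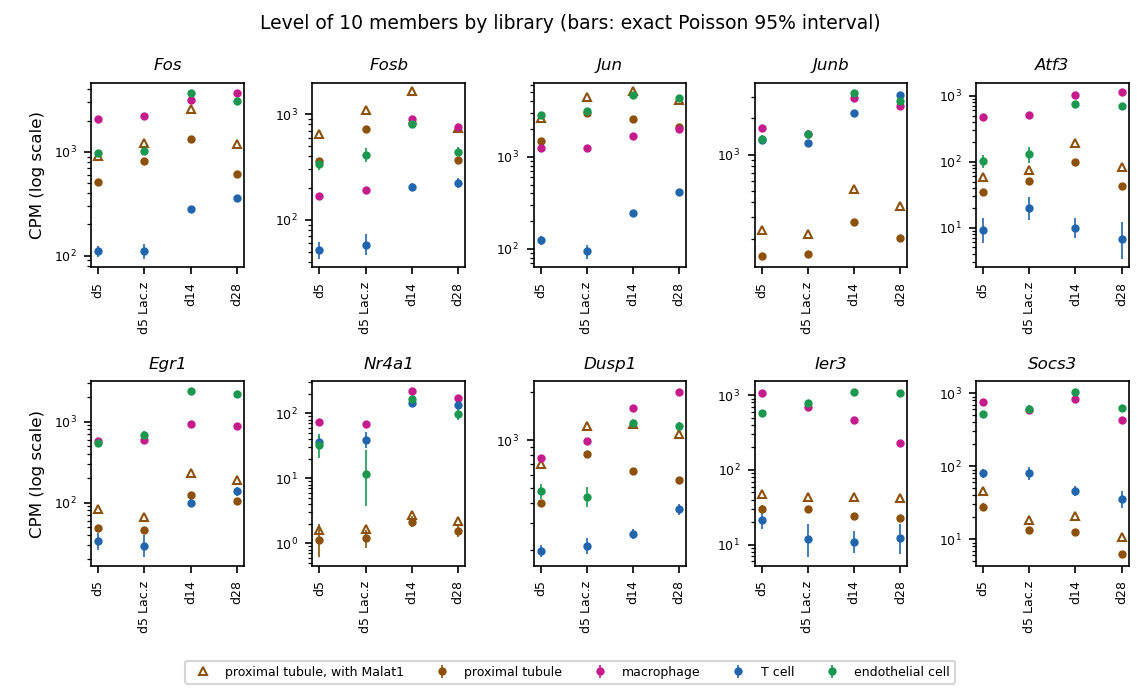
Level of 10 members (CPM, log scale) in each library in proximal tubule (circles for all barcodes, triangles for those with Malat1), macrophage, T and endothelial cells, with exact Poisson 95% intervals as bars. Endothelial Egr1 lies at 549 and 684 CPM in the day 5 libraries and at 2369 and 2208 at days 14 and 28, while macrophage Ier3 goes from 1078 at day 5 to 227 at day 28.

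Atf3, a stress-induced bZIP factor that represses inflammatory genes, and Maff, a small Maf protein, are the other bZIP members. Atf3 was at 101, 129, 746 and 711 CPM in endothelial cells, a ratio of 7.37 (5.84 to 9.40) at day 14 and 7.03 at day 28, among the widest of all members. In macrophages it was 479, 513, 1021 and 1135 CPM. The proximal tubule held 34.2, 50.2, 97.3 and 43.3 CPM, with day 14 apart from the rest. T cells, at 9.30, 19.9, 9.99 and 6.73 CPM, had the lowest Atf3 of all classes ranked in each library. NK cells, ranked at day 28 only, were close there, at 7.48 CPM from 1 UMI. Maff was 3.5, 3.42, 8.92 and 4.28 CPM in the proximal tubule and 11.1, 8.51, 35.2 and 19.6 in macrophages, where day 14 was 3.16-fold above day 5. In T cells Maff was 8.42, 7.39, 11.8 and 20.2 CPM.

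Among the zinc finger factors, Egr1, which growth factor signalling through ERK is known to induce, had its widest ratio in endothelial cells. Its level there was 549, 684, 2369 and 2208 CPM, 4.31-fold (3.89 to 4.79) and 4.02-fold over day 5. T cells, at 33.2, 29.5, 99 and 138 CPM, and the proximal tubule, at 48.0, 45.5, 125 and 104, showed the same split between day 5 and later libraries. Macrophage Egr1 was 580, 584, 925 and 877 CPM, just past the threshold at both times (1.59 and 1.51). Egr2, which with Egr3 restrains lymphocyte activation, was 22.1, 17.6, 30.0 and 19.2 CPM in macrophages. Egr3 was 2.48, 1.55, 5.14 and 4.99 CPM there, lower with Lac.z by 1.60-fold (1.05 to 2.5). Endothelial Egr3 was 8.97, 4.69, 34.7 and 21.5 CPM, 1.61-fold lower at day 28 than at day 14. Proximal tubule Egr2 was 0.0876, 0.263, 0.837 and 0.383 CPM and its day 28 to day 14 comparison rested on few UMIs (2.19-fold lower, 1.27 to 3.84).

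Klf6 and Klf10 are Krüppel-like factors, Klf10 being a known target of TGF-beta. Klf10 was 8.67, 11, 26.6 and 21.7 CPM in the proximal tubule, 3.07-fold higher at day 14 (2.5 to 3.8) and 2.5-fold at day 28. It was 10.0, 11.4, 16.9 and 18.4 CPM in macrophages and 26.9, 28.1, 54.7 and 44.2 in endothelial cells, so that both later libraries were above both day 5 ones in these 3 classes. Klf6 was 346, 637, 523 and 403 CPM over all proximal tubule barcodes, where Lac.z was the highest library. With Malat1 it was 601, 945, 1033 and 798 CPM, and day 14 was the highest. In macrophages Klf6 was 527, 597, 850 and 966 CPM. It was 294, 321, 521 and 570 CPM in T cells and 169, 199, 335 and 252 in endothelial cells.

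The Nr4a orphan nuclear receptors are known to be induced by antigen receptor signalling in T cells. All 3 were higher in T cells at days 14 and 28 than at day 5. Nr4a1 was 36.3, 39.1, 146 and 133 CPM, Nr4a2 47.0, 59.1, 131 and 86.3, and Nr4a3 11.5, 11.8, 66.9 and 73.4. The Nr4a3 ratios to day 5 were 5.81 (3.86 to 9.09) and 6.38 (4.15 to 10.2). In macrophages Nr4a1 was 73.8, 67.3, 219 and 174 CPM and Nr4a3 was 3.30, 4.61, 19.8 and 17.7, with ratios for Nr4a3 of 5.98 and 5.34. Macrophage Nr4a2 went the other way at day 28, with 16.0, 11.6, 18.1 and 9.60 CPM. Endothelial Nr4a1 was 32.0, 11.7, 168 and 98.5 CPM and endothelial Nr4a2 15.4, 11.7, 42.0 and 21.5, both highest at day 14. The proximal tubule had the lowest Nr4a1 of all classes in every library, at 1.14, 1.20, 2.16 and 1.55 CPM.

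Myc, the bHLH proto-oncogene, was 16.6, 27.4, 38.8 and 17.3 CPM in the proximal tubule, 2.33-fold above day 5 at day 14 and 2.25-fold below that at day 28. In macrophages and T cells it stayed within 1.5-fold in every comparison, between 13.3 and 17.3 CPM.

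Dusp1 and Dusp2 encode phosphatases that switch off MAP kinases. Dusp1 was 401, 819, 639 and 555 CPM in the proximal tubule, 2.04-fold higher with Lac.z than at day 5 (1.98 to 2.11), and 703, 1227, 1262 and 1098 with Malat1. In macrophages Dusp1 was 772, 983, 1603 and 2023 CPM, and in endothelial cells 473, 436, 1279 and 1224, in both cases with the later libraries above both day 5 libraries. T cells had 198, 213, 254 and 363 CPM. Dusp2, known from lymphocytes, was within 1.5-fold in T cells, at 510, 490, 595 and 498 CPM, while in macrophages it was 90.2, 104, 247 and 203. In endothelial cells Dusp2 had 6, 5, 58 and 5 UMIs, and the high day 14 value was 6.89-fold over day 5 with an interval of 2.98 to 19.5.

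Ppp1r15a (GADD34) directs dephosphorylation of eIF2alpha and ends the integrated stress response. It was higher at both later times in all 4 classes. The values were 20.6, 40.3, 61.8 and 54.4 CPM in the proximal tubule, 132, 123, 245 and 266 in macrophages, 74.9, 76.1, 185 and 269 in T cells, and 104, 117, 357 and 275 in endothelial cells. Sik1, a kinase induced by cAMP that restrains CREB coactivators, was 11.9, 18.7, 59.8 and 74.1 CPM in macrophages. It was the 1 member higher there with Lac.z (1.58, interval 1.38 to 1.81), and it had the widest day 28 ratio in this class, 6.25 (5.27 to 7.39). T cell Sik1 was 15.1, 18.5, 68.1 and 66.7 CPM. In the proximal tubule it was 19.2, 24.3, 31.8 and 23.0 CPM, and the day 14 ratio of 1.66 became 0.962 when cells were weighted equally.

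Zfp36 (tristetraprolin) and Zfp36l1 bind AU-rich elements and speed the decay of cytokine mRNAs. Zfp36 was 356, 412, 1209 and 943 CPM in endothelial cells, 3.40-fold (2.98 to 3.88) and 2.65-fold over day 5. It was 895, 849, 1527 and 1510 CPM in macrophages, 128, 171, 255 and 213 in the proximal tubule, and 85.5, 68.7, 129 and 201 in T cells, which had the lowest level of these. Zfp36l1 differed less. It was 448, 425, 749 and 686 CPM in macrophages and 222, 194, 309 and 441 in T cells, and within 1.5-fold in proximal tubule and endothelial cells, except 1.62-fold and 1.69-fold higher at days 14 and 28 in proximal tubule barcodes with Malat1.

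Socs3, which inhibits JAK-STAT signalling by cytokines such as interleukin-6, was lower in the proximal tubule in all 4 comparisons. Its level was 27.9, 13.3, 12.6 and 6.26 CPM. It was lower than at day 5 by 2.09-fold (1.81 to 2.42) with Lac.z, by 2.21-fold at day 14 and by 4.45-fold (3.82 to 5.18) at day 28. With Malat1 it was 45.3, 18.4, 20.6 and 10.9 CPM, with the day 5 library again the highest. T cell Socs3 was 80.6, 79.8, 46.3 and 35.5 CPM, and macrophage Socs3 756, 599, 830 and 428. Endothelial Socs3, at 520, 607, 1053 and 619 CPM, was instead higher at day 14. Nfkbia, the NF-kB inhibitor IkB-alpha, was within 1.5-fold in endothelial cells and over all proximal tubule barcodes together. With Malat1 it was 46.4, 55.7, 54.9 and 71.1 CPM, higher at day 28 than at day 5. With little Malat1 it was 26.8, 23.3, 14.0 and 19.6 CPM, lower at day 14 than at day 5. It was 623, 585, 990 and 1124 CPM in macrophages and 383, 438, 372 and 620 in T cells, where day 28 alone was high.

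Btg1 and Btg2 are antiproliferative genes, and Gadd45b and Gadd45g are stress sensors that act on p38 and JNK signalling. Btg1 was within 1.5-fold in macrophages, T cells and endothelial cells in all 4 comparisons, with T cell levels of 1465, 1548, 1482 and 1557 CPM. Over all proximal tubule barcodes Btg1 was 60.8, 95, 80.6 and 71.3 CPM and Btg2 131, 210, 195 and 143. Both were highest there with Lac.z (1.56-fold and 1.60-fold over day 5). With Malat1 both were instead highest at day 14, Btg1 at 76.3, 124, 133 and 119 CPM and Btg2 at 230.5, 315, 384 and 275. With Lac.z, Btg2 was within 1.5-fold of day 5 in barcodes with Malat1 and lower in those with little Malat1. Gadd45b was 4.47, 1.93, 3.24 and 2.26 CPM in the proximal tubule, 2.31-fold lower with Lac.z (1.57 to 3.39). Its endothelial level, 75.6, 89.1, 306 and 303 CPM, was 4.05-fold and 4.02-fold over day 5. In macrophages it was 253, 219, 380 and 325 CPM, and in T cells 114, 96.0, 165 and 213. Gadd45g was 148, 205, 255 and 212 CPM in the proximal tubule and 453, 422, 794 and 829 in endothelial cells.

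The Ier genes are named as immediate early response genes, and Rhob is a small GTPase of endosomes. Ier3, which protects cells from apoptosis, was lower in macrophages in all 4 comparisons. Its level there was 1078, 695, 459 and 227 CPM, lower than day 5 by 1.55-fold with Lac.z, 2.35-fold at day 14 and 4.74-fold (4.38 to 5.15) at day 28. T cell Ier3 was 21.7, 11.8, 10.9 and 12.2 CPM. Endothelial Ier3 was 576, 780, 1116 and 1084 CPM, higher at days 14 and 28 (1.94 and 1.88). Over all proximal tubule barcodes together Ier3 stayed within 1.5-fold. In those with little Malat1 it was 8.66, 5.21, 4.30 and 4.14 CPM, lower than day 5 in every other library. Macrophage barcodes also held proximal tubule marker UMIs, at 257, 518, 780 and 1373 CPM over 18 markers. UMIs of the 9 injured tubule markers, which include Spp1 and Vcam1, summed there to 2164, 1611, 528 and 385 CPM. Neither the cells these UMIs came from nor their part in the Ier3 level was tested.

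Ier2 was 40.6, 55.3, 121 and 103 CPM in the proximal tubule, 2.98-fold (2.71 to 3.29) and 2.54-fold over day 5, and 455, 534, 1066 and 1097 in endothelial cells. In macrophages and T cells it stayed within 1.5-fold. Ier5 was 33.3, 60.5, 62.6 and 34.1 CPM in the proximal tubule, with Lac.z and day 14 high and the other 2 libraries low. It was 334, 404, 506 and 666 CPM in macrophages and 442, 457, 683 and 705 in endothelial cells. Rhob was highest in endothelial cells of all classes in all 4 libraries, at 973, 1078, 1086 and 1017 CPM, and differed little between them. Proximal tubule Rhob was 111, 195, 186 and 163 CPM, and in T cells 10.2, 5.91, 22.7 and 23.9.

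For day 14 against day 5, 5 further classes held enough cells (50 or more) to compare. The balance of higher and lower members varied among them, and differences between classes were not tested. The injured tubule gate was defined by Havcr1, Krt20, Lcn2, Krt8, Krt18, Krt19, Sox9, Vcam1 and Spp1. Principal cells also scored on these genes, with medians of 0.345, 0.356, 0.239 and 0.209. The injured tubule gate held 68, 50 and 60 cells in the first 3 libraries. In it, 18 of 28 members were higher at day 14 (15.5%) and 1, Socs3, lower (7.51%). Barcodes scoring highest for this class that lay close to the gate's cut, gated or just outside it, numbered 15, 24 and 48. The part of these in the counts was not tested. Fibroblast or mural cells, 51 in each of these 2 libraries, had 23 of 26 higher (15.5%) and 0 lower (8.19%), with Atf3 going from 53.6 to 649 CPM. Dendritic cells, 88 and 92 in number, had 13 of 30 higher (7.10%) and 3 lower (9.83%). Barcodes close to the cut for this class, gated or just outside it, numbered 64 and 55. B cells, 50 and 63 in number, had 4 of 18 higher (8.02%) and 2 lower (12.7%). Neutrophils had 5 of 26 higher (10.3%) and 12 lower (11.8%). Their Fos was 4079, 3089 and 1051 CPM at day 5, day 5 with Lac.z and day 14, their Ier3 2896, 1649 and 1235, and their Nr4a1 437, 317 and 987. Fos and Ier3 were lowest and Nr4a1 highest at day 14 among these 3 libraries. Over the 9 classes, 12 of 33 members measured in at least 2 of them were past 1.5-fold in opposite directions in different classes, against 5.28% of all such genes. For Egr1, Klf6, Dusp1, Zfp36, Zfp36l1, Btg2, Ier2 and Rhob the neutrophil gate was the only class in which the member was lower.

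Between days 14 and 28 the counts in the other tubule classes depended on the class and on the barcodes, and no difference between classes was tested. Thick ascending limb cells had 8 of 23 members higher at day 28 (12.9%) and 0 lower (2.22%), among them Btg2 (690 to 1476 CPM) and Gadd45g (448 to 934 CPM). Intercalated cells had 0 of 26 higher (2.84%) and 14 lower (6.21%), among them Atf3 (1414 to 670 CPM) and Klf6 (978 to 481 CPM). With Malat1 the thick ascending limb counts were 4 of 23 higher (8.80%) and 1 lower (3.58%), with a median log2 ratio of 0.15, and with little Malat1 1 of 14 higher (8.77%) and 9 lower (3.17%), with a median of -1.80. The intercalated counts with Malat1 were 0 of 26 higher (3.19%) and 13 lower (7.29%). Distal convoluted tubule cells had 6 of 26 higher (7.45%) and 4 lower (4.24%) in all, 1 of 24 higher (5.29%) and 2 lower (5.26%) with Malat1, and 1 of 15 higher (5.32%) and 13 lower (9.22%) with little Malat1. Principal cells had 5 of 25 higher (6.05%) and 1 lower (4.67%), and with Malat1 4 of 25 (6.03%) and 1 (4.55%). The share of barcodes with Malat1 at days 14 and 28 was 31.1% and 52.3% in the thick ascending limb, 42.8% and 69.4% in the distal convoluted tubule, and 56.0% and 54.7% in intercalated cells.

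Within libraries, the classes differed in which members they held. Injured tubule cells were above proximal tubule cells for 20 of 27 members in each of 4 libraries (23.2%) and below for 0 (9.51%). The day 28 value rested on 18 injured cells, with 13 barcodes of this class close to the cut, gated or just outside it. Among barcodes with Malat1, 17 of 27 were higher (18.7%), such as Atf3 (560, 608, 1436 and 2226 CPM against 58.7, 74.3, 190 and 82.2) and Ier3. In these barcodes 3 members, Jun, Dusp1 and Gadd45g, were lower (12.3%), Jun with 1119, 1435, 2901 and 1931 CPM against 2667, 4473, 5150 and 4144. Endothelial cells, against proximal tubule with Malat1, were higher for 15 of 26 (24.4%), and lower for 4 (22.3%), which were Fosb, Klf6, Myc and Sik1.

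T cells were above macrophages for 4 of 32 members (22.5%), namely Nr4a2, Nr4a3, Dusp2 and Btg1, and below for 17 (17.1%). Fos was 19, 20, 11.2 and 10.4-fold lower in T cells. Btg1, by contrast, was 2.46, 2.78, 2.5 and 2.77-fold higher. Neutrophils were above macrophages for 9 of 30 (13.5%), which were Fosl2, Maff, Klf10, Nr4a1, Nr4a3, Nfkbia, Btg1, Gadd45b and Ier3, and below for 1, Atf3 (15.2%). These counts ask for the same direction in all 4 libraries. Taken singly, the libraries had 26 higher and 3 lower of 33, 18 and 5 of 32, 14 and 10 of 33, and 10 and 12 of 30, the day 28 value resting on 18 neutrophils. Gadd45b was 5.74, 4.43, 4.76 and 3.70-fold higher in neutrophils.

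Genes related to the set were read beside it, in all barcodes of each class. In the proximal tubule the part of the differing share of barcodes with Malat1 was not tested. Of 62 other primary response genes, 28 of 54 measured were higher at day 14 than day 5 in the proximal tubule and 9 lower, 27 of 56 higher and 2 lower in macrophages, 24 of 41 and 0 in T cells, and 26 of 43 and 1 in endothelial cells. Beside these stand 9.26%, 10.5%, 6.78% and 9.89% of all genes higher and 5.99%, 12.6%, 5.59% and 6.75% lower. Examples are Klf4 in macrophages (100 to 459 CPM) and Cdkn1a, the p21 cell cycle inhibitor, in endothelial cells (118 to 694 CPM). With Lac.z the counts were 16 of 53 higher (6.60%) and 2 lower (1.96%) in the proximal tubule, 2 of 55 (8.10%) and 3 (2.95%) in macrophages, 6 of 33 (4.65%) and 1 (3.06%) in T cells, and 7 of 35 (6.50%) and 2 (5.59%) in endothelial cells. Of genes for the kinases and factors upstream of the response, in the day 14 comparison 2 of 38 were higher (9.26%) and 2 lower (5.99%) in the proximal tubule, 7 of 39 (10.5%) and 1 (12.6%) in macrophages, 3 of 35 (6.78%) and 0 (5.59%) in T cells, and 3 of 28 (9.89%) and 0 (6.75%) in endothelial cells. Ribosomal protein genes had 0 of 12 higher in the same comparison in each of the 4 classes, and 1 lower, in macrophages.

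Marker sums of other classes also differed between the libraries. Proximal tubule markers, 18 in the list, summed to 84.2, 171, 642 and 754 CPM in T cells and to 96.1, 525, 776 and 1350 CPM in endothelial cells, so both later libraries were high in both classes. NK cell markers in T cells summed to 440, 441, 1151 and 311 CPM, with Klra8 and Klra4 at 0 UMIs in each library. Macrophage markers in endothelial cells summed to 474, 103, 100 and 83.8 CPM. Injured tubule markers in the proximal tubule gate summed to 3523, 5017, 2402 and 900 CPM, the highest being the Lac.z library. The part of these in the member ratios was not tested.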

How the data were processed

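The 34 members and the other gene lists were chosen with earlier results of these data known. The deposited matrices hold whole-number UMI counts per gene and barcode, made by software 3.0.2 (both day 5 libraries) and 3.1.0 (days 14 and 28), per the file headers, on build mm10, per the submitters' processing notes. The sources used here do not name the aligner's settings or the gene annotation. Barcodes with under 200 genes or over 50% mitochondrial UMIs were removed, as were the highest Scrublet scores (scanpy 1.11.5) at 0.8% per 1000 barcodes, which left 6608, 6583, 8714 and 12376 cells.

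A cell was gated to the class with the highest marker score where that score was at least 0.25 and led the next by 0.1. UMIs were summed per class and library (at least 50 cells in both libraries) and given as CPM. Genes reaching 50 UMIs when the compared libraries were added together counted as measured and were called at 1.5-fold, on log2 values with 1 UMI added. Intervals are exact (binomial or Poisson, 95%, scipy 1.17.1). No test between groups could be made, since each had 1 library. The ratio calls were run on simulated Poisson counts with changes wider than 1.5-fold, placed in genes with many UMIs. That run held no variation between cells or libraries, so it does not bear on 1.5-fold calls from few UMIs. Values in every library are printed for all members past 1.5-fold in proximal tubule, macrophage, T or endothelial cells, to at most 10 in each direction per comparison and class; for the other lists at most 3 in each direction were eligible. Alternatives covered cell assignment, gate, doublets, mitochondrial limit, UMI minimum, scaling, averaging over cells, the 1% of cells with most member UMIs and, added after the data were seen, barcodes with Malat1 only.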

Additional observations from a re-analysis of the deposited data

Results flagged for a closer look

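At day 14 against day 5, 12 members were past 1.5-fold in opposite directions in at least 2 classes, and 4 of them were past 2-fold in both directions. The 12 were among 33 members measured in at least 2 of 9 classes, and 5.28% of all genes so measured met the same rule at 1.5-fold. Of the 16 members measured in all 9 classes 8 met it, against 6.19% of 679 genes. Among the 12, Egr1, Klf6, Dusp1, Zfp36, Zfp36l1, Btg2, Ier2 and Rhob were lower in the neutrophil gate only. The difference between the classes was not tested for any of them. Fos was 3.94-fold higher in fibroblast or mural cells (1254 to 4946 CPM) and 3.88-fold lower in neutrophils (4079 to 1051 CPM). Socs3 was 2.19-fold higher in fibroblast or mural cells (444 to 975 CPM) and 2.21-fold lower in the proximal tubule (27.9 to 12.6 CPM). Ier2 was 2.98-fold higher in the proximal tubule (40.6 to 121 CPM) and 2.45-fold lower in neutrophils (1413 to 577 CPM). Ier3 was 3.2-fold higher in fibroblast or mural cells (211 to 677 CPM) and 2.35-fold lower in macrophages (1078 to 459 CPM). The fibroblast or mural gate held 51 cells in each library, and neutrophils numbered 171 and 77. With 1 library in each group, whether 1 sample stands apart from others of its group could not be examined.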

How the results depend on the processing

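No paired analysis was possible because each group has 1 library. Of 197 member calls in the 4 classes, the number that stayed past 1.5-fold in the same direction was 190 with clusters, 193 with a stricter gate, 184 without doublet removal, 191 at a 25% mitochondrial limit, 170 at a minimum of 200 UMIs, 197 at 20 UMIs, 192 with scaling by the median ratio, 172 as a mean over cells, 188 without the 1% of cells with most member UMIs, and 192 with Malat1 only. The mean over cells reversed 2, Sik1 at day 14 against day 5 (0.962) and Egr2 at day 28 against day 14 (1.09), both in the proximal tubule.

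These counts of members moved by over 1.5 times, and the cause was not tested. For Lac.z, proximal tubule lower went from 2 to 1 (200 UMIs). Macrophage lower went from 2 to 1 (clusters, 200 UMIs, mean over cells, without the top 1%). T cell higher went from 1 to 2 (clusters, no doublet removal, 20 UMIs) or 0 (200 UMIs, median scaling, mean over cells). T cell lower went from 1 to 0 (200 UMIs, mean over cells, without the top 1%) or 2 (20 UMIs). Endothelial higher went from 0 to 1 (mean over cells, without the top 1%) and lower from 0 to 1 (20 UMIs). For day 14 against day 5, proximal tubule higher went from 21 to 10 (mean over cells) and lower from 1 to 2 (25% mitochondrial limit, mean over cells, without the top 1%), and T cell lower from 2 to 1 (200 UMIs). For day 28 against day 5, proximal tubule higher went from 5 to 16 (Malat1 only) and lower from 2 to 1 (stricter gate, no doublet removal, 200 UMIs) or 4 (mean over cells), and T cell lower from 2 to 1 (200 UMIs). For day 28 against day 14, T cell higher went from 4 to 1 (no doublet removal) or 2 (mean over cells), and lower from 1 to 2 (clusters, 20 UMIs) or 0 (no doublet removal, 25% mitochondrial limit, without the top 1%). Endothelial lower went from 6 to 3 (200 UMIs). Within libraries and with Malat1 only, members lower than in the proximal tubule went from 0 to 3 in injured tubule, 0 to 3 in macrophages and 2 to 4 in endothelial cells, and the last was 1 with clusters. Members under the UMI minimum could not be compared, and 23 to 30 of the 34 were measured in endothelial and T cell comparisons.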

Other observations

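Glucocorticoid-responsive genes, a list of 13 of which Zbtb16, Sgk1 and Per1 are known targets of the glucocorticoid receptor, were read as a separate group. With Lac.z against day 5, 7 of 11 measured were higher in the proximal tubule and 0 lower, 4 of 9 and 0 in macrophages, 1 of 7 and 0 in T cells, and 4 of 6 and 0 in endothelial cells, where 6.60%, 8.10%, 4.65% and 6.50% of all genes were higher. In the proximal tubule Zbtb16 was 5.26 CPM at day 5, 21.2 with Lac.z and 23 at day 14. Sgk1, a kinase that controls sodium transport, was 142, 369 and 472 CPM in the same libraries. Per1, a clock gene, was 11.7 CPM at day 5 and 29 with Lac.z. At day 28 against day 5, 9 of 11 were higher in the proximal tubule (7.40% of all genes) and 0 lower, and the median log2 ratio was 1.17. The libraries share the day 5 sample as their base, and no test between groups was possible. The proximal tubule values come from all barcodes together. The part of the share with Malat1, 53.7% with Lac.z and 38.0% at day 5, was not tested.

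Heat shock genes, 21 in the list, were read in the same way. With Lac.z, 4 of 21 were higher in the proximal tubule and 4 of 21 in macrophages, and 0 were lower in either, beside 6.60% and 8.10% of all genes higher. At day 14 these were 6 of 21 and 8 of 21, again with 0 lower, beside 9.26% and 10.5%. Macrophage Hspa1a, an inducible chaperone, was 71.5 CPM at day 5, 131 with Lac.z and 316 at day 14, and its near-identical copy Hspa1b makes the split of reads between them uncertain. Whether digestion has a part in these levels was not tested.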
